A study of Rattus norvegicus with 16 samples.

Results

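The 8 genes described here encode enzymes and a transporter that let hepatocytes make, release and break down glucose. They were chosen by name and by role, with earlier results of these data known. Each was found in the array files through the RefSeq accession of its probes. G6pc1, Pck1 and Fbp1 stand for glucose production, Pklr, Slc2a2 and Pfkl for the liver forms of glucose uptake and breakdown, and Hk2 and Ldha for glycolysis as most cells run it. All 8 were among the 20782 genes that passed the filter on dim probes, 11937 of which carried a gene symbol. G6pc1 and Pfkl had 2 probes each and the other 6 genes had 1.

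The cells were primary hepatocytes of male Sprague Dawley rats, kept in Williams Medium E. Per the labels, the cultures were left untreated or were exposed to 100 µM SQ1 or 30 µM pravastatin, starting 48 hours after plating and lasting 48 hours. SQ1 is given only as this code name, which hepatocyte studies use for squalestatin 1, an inhibitor of squalene synthase, and pravastatin inhibits HMG-CoA reductase, an earlier enzyme of the sterol pathway. Each of 16 arrays held RNA of 1 treated and 1 untreated culture in 2 dyes (A555 and A647), with 8 arrays per drug and 4 per dye orientation. The design text calls them biological replicates without saying whether cultures came from separate animals, so the p-values measure the spread between these cultures. The drugs were given at unlike doses and never shared an array slide, so drug, dose and slide cannot be told apart in any value that sets SQ1 against pravastatin. The deposited value table carries the drug names the other way round from the scanner files: each of its columns correlated across probes at 0.938 to 1.00 with the other drug's array of that number and at 0.422 to 0.562 with the array of its own label. The drug names below follow the scanner files and their sample labels. Which of these deposits carries the right names cannot be settled from the data. If the value table is right, every result below given for a drug belongs to the other drug.

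Gluconeogenesis rebuilds glucose from lactate, amino acids and glycerol, and passes through PEP carboxykinase (Pck1), fructose-1,6-bisphosphatase (Fbp1) and, at the last step, glucose-6-phosphatase (G6pc1). Glycolysis runs the other way through hexokinases, phosphofructokinase and pyruvate kinase, and the hepatocyte uses its own forms of several of these steps, together with the transporter GLUT2 (Slc2a2), which carries glucose in either direction. Insulin and glucagon set the balance through FOXO1 and CREB, and glucose itself acts through the factor ChREBP, of which the liver pyruvate kinase gene Pklr is a classical target.

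The promoters of 4 of the genes are printed because the elements through which these signals are known to act were first described in genes of this kind. Each is the 250 bases before the RefSeq transcription start on assembly GRCr8, and all 4 genes lie on the + strand. Capitals mark matches to the motifs searched on both strands, and positions are counted in bases upstream of the start.
G6pc1, chr10:86807409-86807658: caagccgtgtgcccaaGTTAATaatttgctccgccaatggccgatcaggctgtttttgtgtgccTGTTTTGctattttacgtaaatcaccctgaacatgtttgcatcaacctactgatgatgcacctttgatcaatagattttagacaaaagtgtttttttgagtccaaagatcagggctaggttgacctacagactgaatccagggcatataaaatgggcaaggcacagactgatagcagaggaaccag
Pck1, chr3:182348322-182348571: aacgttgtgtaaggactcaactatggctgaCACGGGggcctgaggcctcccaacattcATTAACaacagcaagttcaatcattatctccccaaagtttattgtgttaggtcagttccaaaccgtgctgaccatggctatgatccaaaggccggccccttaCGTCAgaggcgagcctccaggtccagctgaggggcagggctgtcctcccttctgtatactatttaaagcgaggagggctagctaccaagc
Pklr, chr2:176841014-176841263: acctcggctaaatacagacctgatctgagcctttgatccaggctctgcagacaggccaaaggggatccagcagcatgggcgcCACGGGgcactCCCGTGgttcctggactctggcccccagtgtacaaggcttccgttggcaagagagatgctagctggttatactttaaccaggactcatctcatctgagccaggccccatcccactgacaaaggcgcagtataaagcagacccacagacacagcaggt
Ldha, chr1:106507842-106508091: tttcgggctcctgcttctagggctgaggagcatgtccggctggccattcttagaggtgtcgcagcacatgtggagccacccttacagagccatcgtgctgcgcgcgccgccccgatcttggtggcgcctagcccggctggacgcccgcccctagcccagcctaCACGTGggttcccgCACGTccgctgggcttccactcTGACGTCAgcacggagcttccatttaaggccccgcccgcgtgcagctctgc

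The Pklr window held CACGGG on both strands, at 168 to 163 and 157 to 152 bases upstream, a pair that forms its carbohydrate response element. Single copies of CACGGG lay in the windows of Pfkl, at 15 to 10 bases, and of Hk2, on the opposite strand at 120 to 115, which are not printed. The G6pc1 window held CAAAACA, the core of the insulin response element, on the opposite strand at 186 to 180 bases, and GTTAAT, a core of the HNF1 site, at 234 to 229. The Pck1 window held TGACG, the core of the cyclic AMP response element, on the opposite strand at 90 to 86 bases, GTTAAT on the opposite strand at 192 to 187 and CACGGG at 220 to 215. The Ldha window held the E-box CACGTG at 87 to 82 bases, with ACGTG, the core of the hypoxia response element, inside it on either strand and once more on the opposite strand at 73 to 69. It also held TGACG at 51 to 47 and, overlapping it on the opposite strand, at 48 to 44. Short motifs of this kind are common: of 33469 rat promoter windows of this length, 8.05% held CACGGG, 5.46% CAAAACA, 6.45% GTTAAT, 18.2% TGACG, 5.59% CACGTG and 16.6% ACGTG. The forkhead core TGTTTAC, which 3.21% of windows held, was in none of the 8 members' windows. These matches describe the letters, and no binding of any factor was measured in these cultures.

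With SQ1, all 3 gluconeogenic members fell, Pklr and Slc2a2 fell, and Pfkl and Ldha rose, so that 7 of the 8 genes were called (adjusted p under 0.05, limma with Benjamini-Hochberg adjustment over all genes). SQ1 moved much of the transcriptome: 63.8% of all genes tested were called, 32.6% higher and 31.2% lower, and 7.41% were called with a change of at least 1.5-fold. Among the 8 members, 5 were called lower, each of them by at least 1.5-fold. With pravastatin, 5 of the 8 were called, all of them lower, and 1 by at least 1.5-fold, against 38.9% of all genes called, 19.4% higher and 19.6% lower, and 1.93% called with at least 1.5-fold. The median log2 fold change over all genes was 0.01 with SQ1 and 0.00 with pravastatin. Each drug was set against the untreated channels of its own arrays. The labels do not say whether same-numbered arrays of both drugs share an untreated culture, but their residuals correlated, so the drugs' values are not independent of each other. For replicates 2, 3, 7 and 8, some array of another number under the other drug correlated more closely (0.361, 0.391, 0.391 and 0.331). The same-numbered values there were 0.34, 0.345, 0.343 and 0.143. Same-numbered arrays also share scan day, for which this fit held no term, and the cause of the correlation was not tested.

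**Figure D1:**
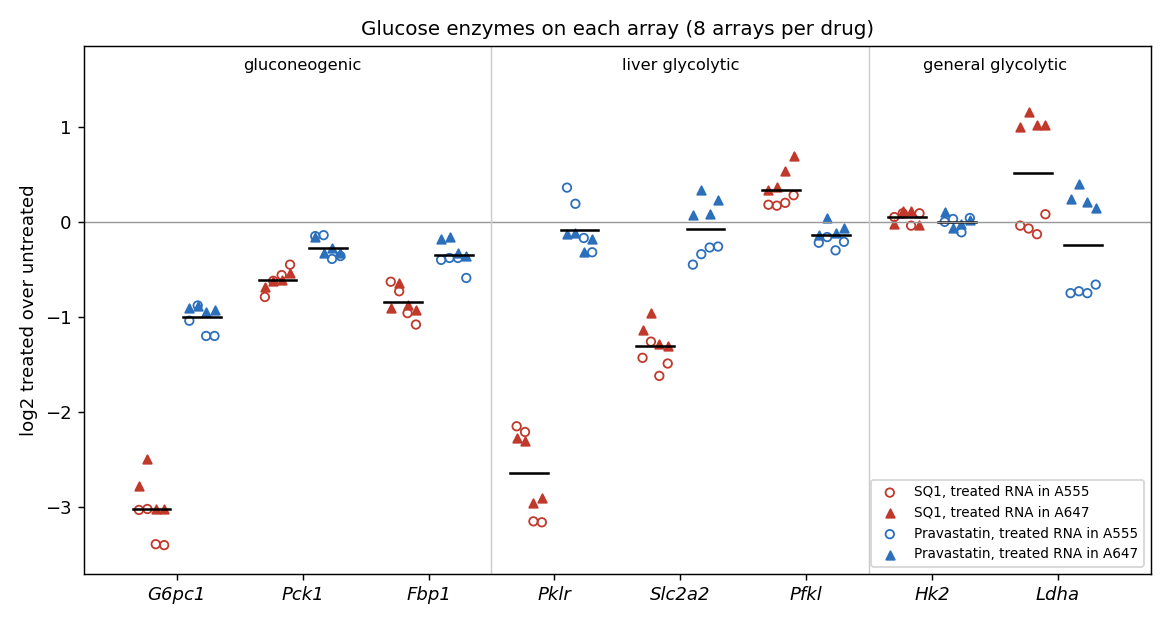
The log2 ratio of treated over untreated RNA is plotted for each of the 8 members, with 1 point per array, SQ1 in red and pravastatin in blue, open circles where the treated RNA carried A555 and filled triangles where it carried A647, and a black bar at the fitted value of each drug. The SQ1 points of G6pc1 and Pklr lie between −3.40 and −2.15, and those of Ldha split by dye.

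G6pc1 encodes the catalytic unit of glucose-6-phosphatase, which frees glucose for release from the liver. Its log2 ratio of treated over untreated ran from −3.40 to −2.49 over the 8 SQ1 arrays, with a median of −3.02, and from −1.20 to −0.88 over the 8 pravastatin arrays, with a median of −0.94. Every array of either drug showed a fall, and the ranges did not overlap. G6pc1 fell 8.11-fold with SQ1 (log2 −3.02 ± 0.06 SE, n = 8, limma adjusted p = 1.4e-17) and 2-fold with pravastatin (its log2 ratio fell by 1.00 ± 0.06 SE, n = 8, limma adjusted p = 3.3e-10). Only 2 of the 20782 genes had a lower fitted value with SQ1. The difference of the drugs was −2.02 ± 0.08 (SE, limma adjusted p = 3.2e-12), and −0.86 (limma adjusted p = 0.030) when all arrays were scaled to 1 spread. On the scale of the signal itself, the log2 signal was 13.89 ± 0.07 (SD, n = 16) in untreated channels, 12.90 ± 0.13 (SD, n = 8) with pravastatin and 10.85 ± 0.27 (SD, n = 8) with SQ1. The second, dimmer probe gave log2 fold changes of −2.29 ± 0.06 with SQ1 and −0.82 ± 0.06 with pravastatin (SE, n = 8), so that the probes agreed in direction and order but not in size.

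Fbp1 encodes the bisphosphatase that undoes the phosphofructokinase step. Its log2 ratio ran from −1.08 to −0.63 with SQ1 (median −0.89) and from −0.59 to −0.16 with pravastatin (median −0.37), with no overlap between the drugs. It fell 1.8-fold with SQ1 (log2 −0.84 ± 0.05 SE, n = 8, limma adjusted p = 3.2e-11) and 1.27-fold with pravastatin (−0.35 ± 0.05 SE, n = 8, limma adjusted p = 1.5e-05).

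Pck1 encodes the cytosolic PEP carboxykinase, the entry step of gluconeogenesis from oxaloacetate. Its log2 ratio ran from −0.79 to −0.45 with SQ1 (median −0.61) and from −0.39 to −0.14 with pravastatin (median −0.30), again without overlap. It fell 1.53-fold with SQ1 (log2 −0.61 ± 0.04 SE, n = 8, limma adjusted p = 5.6e-11) and 1.2-fold with pravastatin (−0.27 ± 0.04 SE, n = 8, limma adjusted p = 1.3e-05). The drugs differed by −0.50 ± 0.07 for Fbp1 and by −0.34 ± 0.05 for Pck1 (SE, limma adjusted p = 1.1e-05 and 2.8e-05). Both of these differences lost their call under the scaling to 1 spread, at −0.14 and −0.13 (limma adjusted p = 0.46 and 0.14), a scaling that removes the wider spread of the SQ1 arrays.

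Pklr encodes the liver and red cell pyruvate kinase, the last step of glycolysis. Its log2 ratio ran from −3.16 to −2.15 over the SQ1 arrays (median −2.60) and from −0.32 to 0.36 over the pravastatin arrays (median −0.15). All 8 SQ1 arrays lay far below zero, while 6 of the 8 pravastatin arrays were below and 2 above it. Pklr fell 6.22-fold with SQ1 (log2 −2.64 ± 0.11 SE, n = 8, limma adjusted p = 7.2e-13). With pravastatin the fitted value was −0.09 ± 0.11 (SE, n = 8, limma adjusted p = 0.60), with a 95% interval of −0.32 to 0.15. The difference of the drugs, −2.55 ± 0.16 (SE, limma adjusted p = 8.1e-10), was the lowest of all 20782 genes. The log2 signal was 13.81 ± 0.47 (SD, n = 16) in untreated channels, 13.71 ± 0.42 (SD, n = 8) with pravastatin and 11.19 ± 0.09 (SD, n = 8) with SQ1.

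Slc2a2 encodes GLUT2, the main glucose transporter of the hepatocyte surface. Its log2 ratio ran from −1.62 to −0.96 with SQ1 (median −1.29) and from −0.45 to 0.34 with pravastatin (median −0.09). It fell 2.48-fold with SQ1 (log2 −1.31 ± 0.05 SE, n = 8, limma adjusted p = 5.6e-14), and the drugs differed by −1.24 ± 0.07 (SE, limma adjusted p = 1.0e-10), or by −0.80 (limma adjusted p = 0.0016) with arrays scaled to 1 spread. With pravastatin the value was −0.08 ± 0.05 (SE, n = 8, limma adjusted p = 0.23; 95% interval −0.17 to 0.02). The pravastatin arrays split by dye: the 4 with treated RNA in A555 lay between −0.45 and −0.26 and the 4 with it in A647 between 0.07 and 0.34.

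Pfkl encodes the liver subunit of phosphofructokinase, the committed step of glycolysis. Its log2 ratio ran from 0.17 to 0.69 with SQ1 (median 0.30) and from −0.30 to 0.04 with pravastatin (median −0.15), and the ranges did not overlap. It rose 1.27-fold with SQ1 (log2 0.34 ± 0.03 SE, n = 8, limma adjusted p = 1.0e-07), in the opposite direction to Pklr and Slc2a2 in the same cultures. With pravastatin it fell 1.11-fold (−0.14 ± 0.03 SE, n = 8, limma adjusted p = 0.0030). The second probe gave 0.34 ± 0.04 with SQ1 and −0.07 ± 0.04 with pravastatin (SE, n = 8, limma adjusted p = 3.2e-07 and 0.18), so the small fall with pravastatin was called by 1 of the 2 probes.

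Ldha encodes the lactate dehydrogenase subunit that turns pyruvate into lactate, and its ratio depended strongly on the dye. With SQ1, the 4 arrays with treated RNA in A555 ran from −0.13 to 0.08 and the 4 in A647 from 1.00 to 1.16. With pravastatin, the A555 arrays ran from −0.75 to −0.66 and the A647 arrays from 0.15 to 0.40. Pooled over the dyes the drugs overlapped, but within each orientation every SQ1 array lay above every pravastatin array. The dye term of the model was 1.03 ± 0.04 (SE), larger than either drug's effect, and it cancels in a mean over balanced orientations. With that term Ldha rose 1.42-fold with SQ1 (log2 0.51 ± 0.03 SE, n = 8, limma adjusted p = 7.5e-11) and fell 1.18-fold with pravastatin (−0.24 ± 0.03 SE, n = 8, limma adjusted p = 7.2e-06). Taken alone, the A555 arrays gave −0.04 with SQ1 (limma adjusted p = 0.45) and the A647 arrays gave 0.25 with pravastatin (limma adjusted p = 0.0018), each with the sign turned. The difference of the drugs, 0.74 ± 0.04 (SE, limma adjusted p = 2.8e-10), had the same sign in either orientation: SQ1 and pravastatin averaged −0.04 and −0.72 in A555 and 1.05 and 0.25 in A647.

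Hk2 encodes hexokinase 2, a form that the adult liver normally keeps low. Its probe was well above background in 4 of 16 untreated, 4 of 8 SQ1 and 2 of 8 pravastatin channels, with a log2 signal of 6.57 ± 0.04 (SD, n = 16) in untreated channels. Its log2 ratio ran from −0.04 to 0.11 with SQ1 and from −0.11 to 0.10 with pravastatin, overlapping around zero. The fitted values were 0.05 ± 0.03 and 0.00 ± 0.03 (SE, n = 8, limma adjusted p = 0.14 and 0.94), and a change in a signal this close to background was not detectable here.

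**Figure D2:**
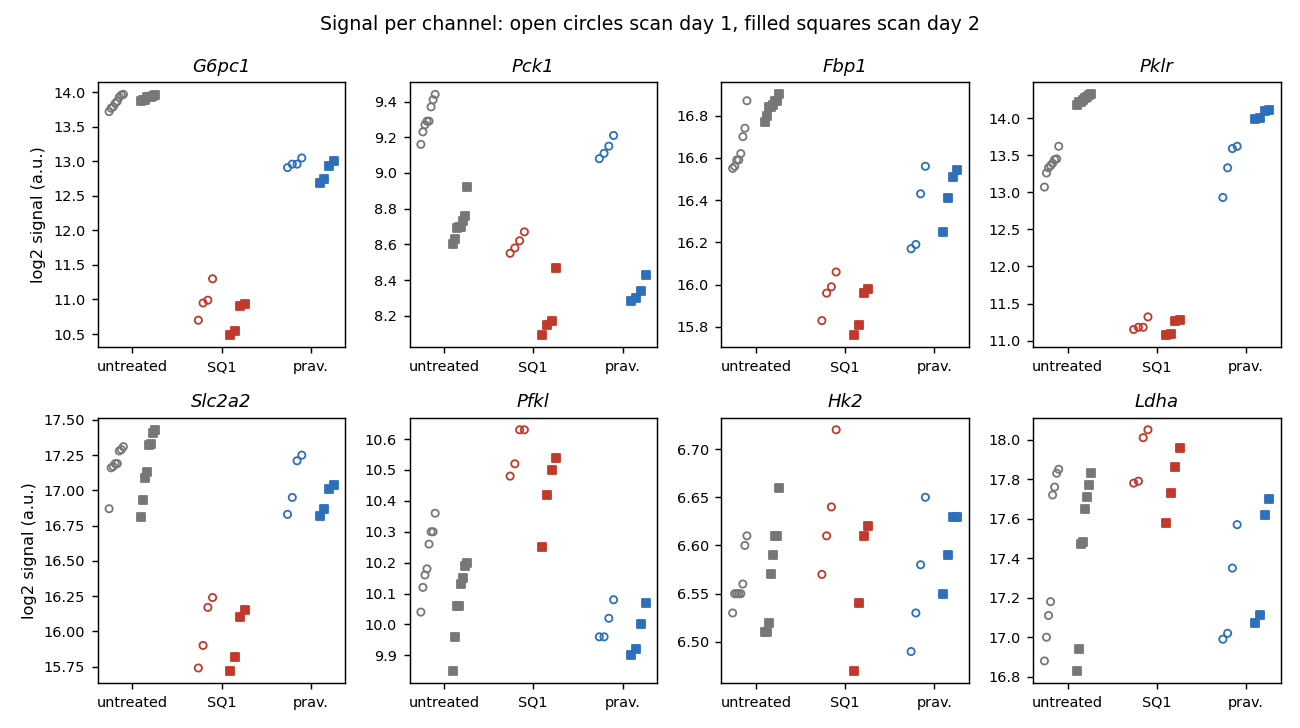
The log2 signal of each member, in arbitrary units on an axis of its own, is plotted per channel for untreated, SQ1 and pravastatin (prav.) RNA, with open circles for arrays of scan day 1 and filled squares for scan day 2. SQ1 channels of G6pc1, Fbp1, Pklr and Slc2a2 lie below every untreated channel, and untreated Pklr is higher on scan day 2 than on day 1 while Pck1 is lower.

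By role, the gluconeogenic members fell 3 of 3 with either drug, with a median log2 fold change of −0.84 with SQ1 and −0.35 with pravastatin. The liver glycolytic members went both ways with SQ1, 2 lower and 1 higher (median −1.31), and with pravastatin only Pfkl was called (median −0.09). Of the general glycolytic pair, Ldha was the called gene under each drug. For SQ1 minus pravastatin 7 members were called, 2 higher and 5 lower, against 37.9% of all genes called, 18.4% higher and 19.5% lower. A difference of at least 1.5-fold was called for 4 members (G6pc1, Pklr, Slc2a2 and Ldha) and for 4.18% of all genes.

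Whether members changed by different amounts on the same arrays was asked for all 28 pairs under each drug, with an exact two-sided permutation test that flips the signs of the 8 within-array differences. The smallest p that 8 arrays allow is 0.0078. After adjustment over the 56 tests 39 pairs passed, and 48 passed when each gene's dye term was removed first. By its brighter probe, G6pc1 fell more than each of the other 7 genes on every array of either drug (adjusted p = 0.012 in each exact test). Its margin with SQ1 was smallest against Pklr, at −0.38 log2 units, and with pravastatin against Fbp1, at −0.65. The order of G6pc1 and Pklr with SQ1 rests on that probe, since the second probe of G6pc1 gave −2.29 and the mean of both −2.66, against −2.64 for Pklr. Pklr fell more than Slc2a2 with SQ1, by 1.33 log2 units on 8 of 8 arrays (adjusted p = 0.012, exact test). The falls of Pck1 and Fbp1 differed by 0.23 with SQ1 (adjusted p = 0.055, exact test) and by 0.08 with pravastatin (adjusted p = 0.18, exact test), neither of which passed. With pravastatin no pair among Pklr, Slc2a2 and Pfkl passed.

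The arrays were scanned on 2 days, each with 4 arrays of either drug on slides that held 1 drug. The response to SQ1 differed between the days for Pklr, G6pc1 and Fbp1, and no such difference was called for the other members. The Pklr log2 ratio with SQ1 averaged −2.23 on day 1 and −3.04 on day 2 (n = 4 each), a difference of −0.81 ± 0.09 (SE, limma adjusted p = 3.6e-05). G6pc1 went from −2.83 to −3.21, a difference of −0.38 ± 0.07 (SE, limma adjusted p = 0.0019), and Fbp1 from −0.73 to −0.96, a difference of −0.23 ± 0.07 (SE, limma adjusted p = 0.037). Such a difference was called for 14.7% of all genes with SQ1 and 4.97% with pravastatin, and with pravastatin for none of the members in limma's test. The fall of Pklr with SQ1 was also called within each day alone.

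For Pklr the channel signals show which side differed between the days. The untreated log2 signal was 13.37 ± 0.16 (SD, n = 8) on day 1 and 14.26 ± 0.05 (SD, n = 8) on day 2, while the SQ1 channels stood at 11.21 ± 0.07 and 11.17 ± 0.11 (SD, n = 4). Pravastatin channels followed the untreated ones, at 13.37 ± 0.32 and 14.05 ± 0.06 (SD, n = 4). Untreated Pck1 moved the other way, from 9.31 ± 0.09 to 8.72 ± 0.10 (SD, n = 8). On day 2 alone Pklr with pravastatin was called at −0.25 (limma adjusted p = 0.0012), and on day 1 it averaged 0.08. Scan day, slide and any difference between the cultures behind them cannot be told apart.

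The wider pathway was followed in 13 lists, of which 138 genes were measured: 53 rose and 66 fell with SQ1, and 24 rose and 60 fell with pravastatin. Over all genes tested 32.6% were called higher and 31.2% lower with SQ1, and 19.4% and 19.6% with pravastatin, and each list count below is to be set against these shares. The lists were chosen with earlier results of these data known, so their counts describe the listed genes and test no pathway. Of 23 measured glycolysis genes, members included, 10 rose and 9 fell with SQ1 (median 0.02), and 4 rose and 8 fell with pravastatin (median −0.05). With SQ1, isoforms of one step went opposite ways among the phosphofructokinases, the fructose bisphosphatases and the lactate dehydrogenase subunits. Aldoc, the brain-type aldolase, rose 3.96-fold with SQ1 and 3.43-fold with pravastatin (log2 1.99 ± 0.04 and 1.78 ± 0.04 SE, n = 8, limma adjusted p = 3.2e-17 and 2.7e-16).

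Among the phosphofructokinases, Pfkp, the platelet form, rose by 0.97 ± 0.05 with SQ1 and Pfkm, the muscle form, fell by 0.39 ± 0.05 (log2 ± SE, n = 8), beside the rise of Pfkl. Pkm, the pyruvate kinase of most other tissues, stood at −0.09 ± 0.03 with SQ1 and −0.03 ± 0.03 with pravastatin (log2 ± SE, n = 8), a fall that was called for SQ1 but that did not pass on processed signals or after median centring. Ldhb, the heart-type lactate dehydrogenase subunit, fell by 0.24 ± 0.03 with SQ1. The 10 glycolysis genes that rose with SQ1 were Pfkl, Pfkp, Aldoa, Aldoc, Tpi1, Pgk1, Pgam1, Pgam2, Eno2 and Ldha. Those outside the rule for named genes were picked out after their values were seen, among them Aldoa at 0.65 ± 0.06, Pgk1 at 0.57 ± 0.03, Tpi1 at 0.49 ± 0.04 and Pgam1 at 0.25 ± 0.03 (log2 ± SE, n = 8). All of them act at or below the aldolase step except the phosphofructokinases. None of these 4 rose with pravastatin, where Pgk1 and Tpi1 fell by 0.16 and 0.15.

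Gckr, a glycolysis switch of the liver, fell by 0.99 ± 0.05 with SQ1 and 0.62 ± 0.05 with pravastatin (log2 ± SE, n = 8). Hk1 fell by 0.19 ± 0.03 with SQ1 and rose by 0.10 ± 0.03 with pravastatin (log2 ± SE, n = 8). Hk3 stood at −0.06 ± 0.04 with SQ1 and fell to −0.18 ± 0.04 with pravastatin (log2 ± SE, n = 8). Both pravastatin calls were lost on scan day 1 alone, and that of Hk1 also after median centring. Pfkfb1, the liver form of the enzyme that makes and removes fructose-2,6-bisphosphate, fell by 0.80 ± 0.04 with SQ1 and stood at 0.03 ± 0.04 with pravastatin (log2 ± SE, n = 8).

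**Figure D3:**
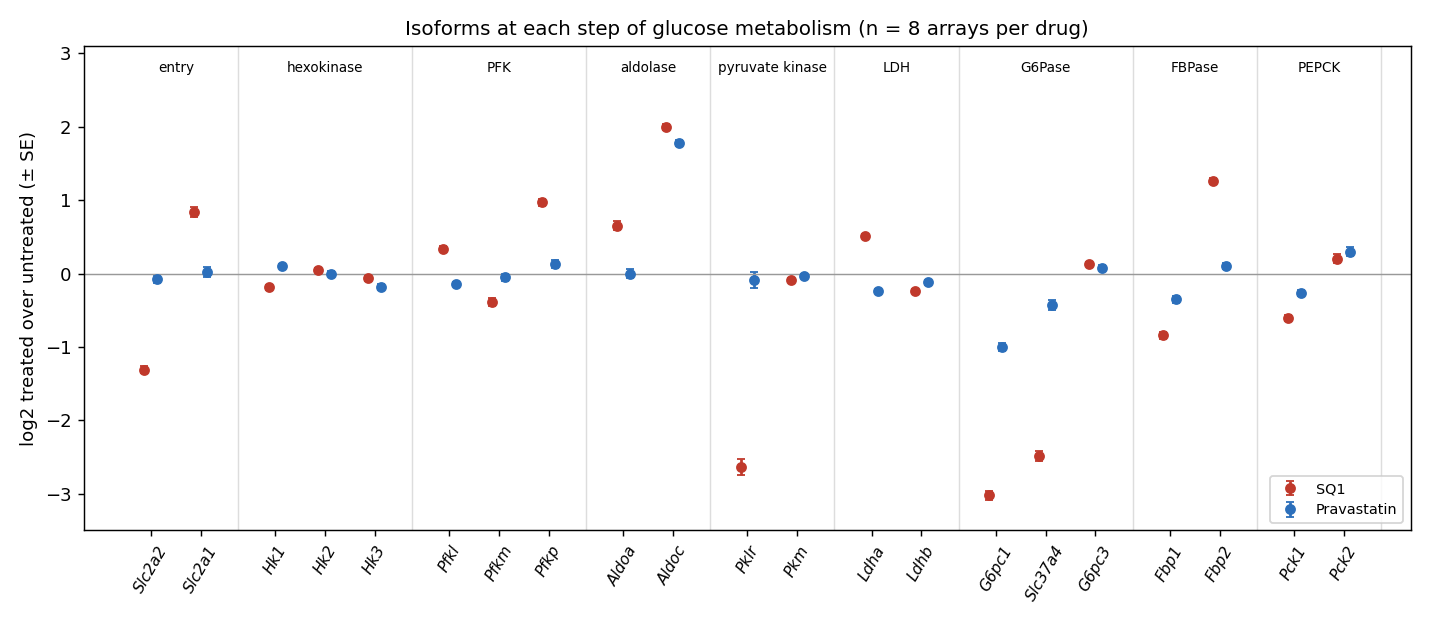
Fitted log2 fold changes of treated over untreated with their SE (n = 8 arrays per drug) are plotted for isoforms grouped by step, SQ1 in red and pravastatin in blue. With SQ1 Pklr (−2.64) lies far below Pkm (−0.09), and Fbp1 (−0.84) below Fbp2 (1.26).

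Of 12 gluconeogenesis genes, all measured, 8 fell and 3 rose with SQ1 (median −0.47), and 8 fell and 2 rose with pravastatin (median −0.25). Slc37a4, which carries glucose-6-phosphate to the glucose-6-phosphatase inside the endoplasmic reticulum, fell 5.63-fold with SQ1 (log2 −2.49 ± 0.07 SE, n = 8, limma adjusted p = 3.9e-15) and 1.34-fold with pravastatin (−0.43 ± 0.07 SE, n = 8, limma adjusted p = 1.5e-04). Both parts of that system thus fell together, while G6pc3, the widely expressed phosphatase, rose by 0.13 ± 0.03 with SQ1 (log2 ± SE, n = 8, limma adjusted p = 4.6e-04). Mdh1, the cytosolic malate dehydrogenase, fell by 0.80 ± 0.04 and 0.32 ± 0.04 with SQ1 and pravastatin. Fbp2, the muscle bisphosphatase, rose 2.39-fold with SQ1 (log2 1.26 ± 0.04 SE, n = 8, limma adjusted p = 3.8e-14) and stood at 0.10 ± 0.04 with pravastatin. Pck2, the mitochondrial PEP carboxykinase, rose by 0.20 ± 0.06 with SQ1 and 0.30 ± 0.06 with pravastatin, where Pck1 fell. The SQ1 call of Pck2 was lost with arrays scaled to 1 spread (0.14, limma adjusted p = 0.087), and on scan day 1 alone neither call held (0.11 and 0.15, limma adjusted p = 0.18 and 0.12).

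Most measured hexose transporters and most genes of fructose and glycerol entry fell with SQ1. Of 6 measured hexose transporters, the member Slc2a2 included, 4 fell and 1 rose with SQ1 (median −0.72), and 2 fell with pravastatin (median −0.04). Slc2a5, a fructose transporter, fell 5-fold with SQ1 (log2 −2.32 ± 0.06 SE, n = 8, limma adjusted p = 8.6e-16) and 1.75-fold with pravastatin, and Slc2a4, the insulin-regulated transporter of muscle and fat, fell 4.04-fold and 2.25-fold. Slc2a1, which encodes GLUT1, the transporter of most growing cells, rose 1.79-fold with SQ1 (log2 0.84 ± 0.07 SE, n = 8, limma adjusted p = 1.1e-08) and stood at 0.02 ± 0.07 with pravastatin, opposite to Slc2a2. Of the 8 genes of fructose and glycerol entry 6 fell and 2 rose with SQ1 (median −0.84), and 6 fell with pravastatin (median −0.31). Among them Khk (ketohexokinase) fell by 1.65 ± 0.05, Tkfc (triokinase) by 1.56 ± 0.04, Aqp9, a glycerol channel, by 1.68 ± 0.13 and Gpd1, a glycerol-3-phosphate dehydrogenase, by 1.11 ± 0.04 with SQ1 (log2 ± SE, n = 8).

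The listed targets of ChREBP other than Pklr all fell with SQ1: 7 of 7 measured, each by at least 1.5-fold, with a median of −1.11. With pravastatin 5 of the 7 fell and none by 1.5-fold (median −0.44). The list overlaps that of fructose and glycerol entry, since Khk, Tkfc and Gpd1 stand in both. Outside that overlap, Thrsp, a lipogenic regulator, fell by 1.55 ± 0.08 and Txnip, which restrains glucose uptake, by 0.94 ± 0.08 with SQ1 (log2 ± SE, n = 8), and Txnip stood at −0.02 ± 0.08 with pravastatin. Mlxipl, which encodes ChREBP itself and is counted among the 7, fell 1.52-fold with SQ1 (log2 −0.61 ± 0.03 SE, n = 8, limma adjusted p = 3.7e-11). It stood at −0.09 ± 0.03 with pravastatin.

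Of 17 transcription factors and coactivators of these genes 11 fell and 4 rose with SQ1 (median −0.13), and 8 fell and 3 rose with pravastatin (median −0.09). Klf15, a factor of fasting gluconeogenesis, fell by 1.47 ± 0.04 with SQ1 and fell by 0.71 ± 0.04 with pravastatin, whereas Creb3l3, an endoplasmic reticulum factor of the fasted liver, rose by 0.91 ± 0.05 with SQ1, and Creb1 rose by 0.69 ± 0.03 and 0.35 ± 0.03 (log2 ± SE, n = 8). Targets of FOXO1 and glucagon other than the members were divided, with 3 up and 3 down of 7 with SQ1 (median −0.01) and 2 down with pravastatin (median −0.09). Igfbp1, an insulin-repressed secreted protein, fell by 0.60 ± 0.12 with SQ1, a call lost with arrays scaled to 1 spread (−0.47, limma adjusted p = 0.17), while Pdk4, which shuts off pyruvate dehydrogenase in fasting, rose by 1.91 ± 0.09 (log2 ± SE, n = 8). Of 13 insulin and glucagon signalling genes 6 rose and 4 fell with SQ1 (median −0.01), and 2 rose and 5 fell with pravastatin (median −0.04). Gcgr, the glucagon receptor, fell 2.34-fold with SQ1 (log2 −1.23 ± 0.03 SE, n = 8, limma adjusted p = 2.2e-15) and 1.22-fold with pravastatin.

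Targets of HIF other than the members mostly rose with SQ1, 10 of 13 measured, 4 of them by at least 1.5-fold, and 1 fell (median 0.34). Outside the rule for named genes, Pdk1 was the gene that fell (−0.11), and Vegfa (0.08) and Pfkfb3 (0.06) were not called. The list overlaps others, since Slc2a1, Pgk1, Pdk1, Pfkfb3 and Pfkfb4 are counted there too. With pravastatin 1 rose and 4 fell (median 0.01). Ndrg1 rose by 1.45 ± 0.09, Bnip3, a mitophagy receptor, by 1.00 ± 0.04 and Egln3, a prolyl hydroxylase that acts on HIF, by 0.61 ± 0.06 with SQ1 (log2 ± SE, n = 8), beside Slc2a1 and Pgk1 above. With pravastatin Egln3 fell by 0.17 ± 0.06, a call lost after median centring, and Ndrg1 and Bnip3 stood at −0.07 ± 0.09 and 0.06 ± 0.04.

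The fates of pyruvate and glucose-6-phosphate were less uniform. Of 15 genes of pyruvate and lactate handling 10 rose and 5 fell with SQ1 (median 0.24), and 4 rose and 5 fell with pravastatin (median −0.03). Slc16a3, a lactate exporter, rose 2.58-fold with SQ1 (log2 1.36 ± 0.06 SE, n = 8, limma adjusted p = 3.6e-13) and stood at −0.04 ± 0.06 with pravastatin. Pdp2, a phosphatase that switches pyruvate dehydrogenase on, rose by 1.66 ± 0.05 with SQ1 and 1.16 ± 0.05 with pravastatin, and Pdhb, a subunit of that enzyme, fell by 0.81 ± 0.03 and 0.33 ± 0.03 (log2 ± SE, n = 8). Of 16 glycogen genes 9 fell and 5 rose with SQ1 (median −0.15), and 9 fell and 3 rose with pravastatin (median −0.10).

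Ppp1r3c, which brings a phosphatase to glycogen, fell by 2.21 ± 0.04 with SQ1 and 1.02 ± 0.04 with pravastatin, its relative Ppp1r3b by 0.81 ± 0.05 and 0.30 ± 0.05, and Gys2, the liver glycogen synthase, by 0.66 ± 0.05 and 0.38 ± 0.05 (log2 ± SE, n = 8). Gaa, the lysosomal enzyme that degrades glycogen, rose by 0.85 ± 0.04 with SQ1. Of 9 pentose phosphate genes 4 rose and 2 fell with SQ1 (median 0.08), and 3 rose and 2 fell with pravastatin (median 0.09). H6pd, an enzyme of that pathway inside the endoplasmic reticulum, fell by 0.94 ± 0.05 with SQ1 and 0.35 ± 0.05 with pravastatin (log2 ± SE, n = 8). Of the 6 genes that switch glycolysis, 2 rose and 2 fell with SQ1 (median 0.06), and 3 rose and 1 fell with pravastatin (median 0.09).

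**Figure D4:**
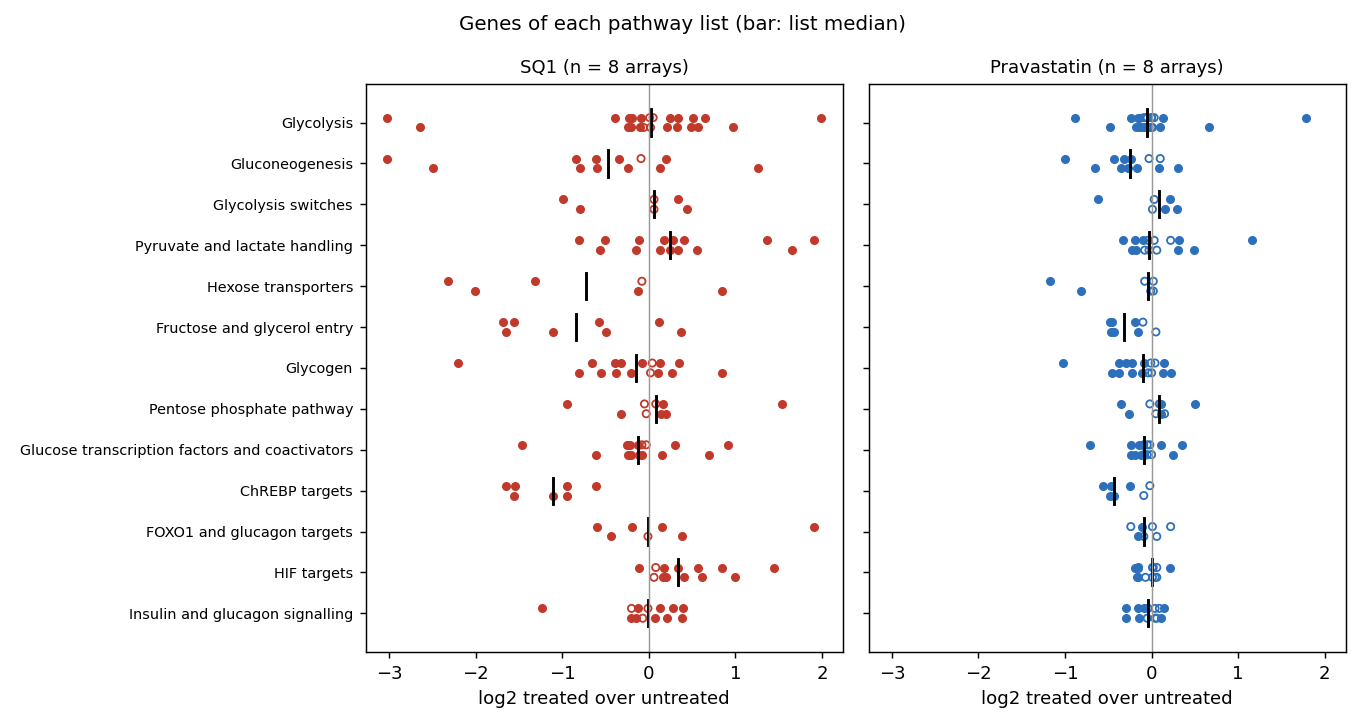
Each point is the fitted log2 fold change of 1 gene of a pathway list, with SQ1 at left and pravastatin at right, filled where the gene was called and open where it was not, and a bar marks the list's median. With SQ1 the ChREBP targets lie wholly below zero (median −1.11) and the HIF targets mostly above it (median 0.34).

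The genes whose ratios over the 16 arrays lay nearest to a member, by root mean square difference in log2 units, were mostly outside glucose metabolism. For G6pc1 these were Fmo1 (0.21), a flavin monooxygenase, Serpind1 (0.33), which encodes heparin cofactor II, and Lrtm2 (0.47). For Pklr they were Slc37a4 (0.33), C4bpb (0.42) and S1pr1 (0.42), so that the nearest of all genes with a symbol was the glucose-6-phosphate carrier. Slc2a2 was nearest to Prss8 (0.23), Tm6sf2 (0.23) and Il6r (0.24). Fbp1 was nearest to Aspdh, Slc25a25 and Egf, and Pck1 to Lgals9, Rhoh and Nfe2l2, at differences of 0.09 to 0.11, in a range of fold changes that many genes share.

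The labelled cell type was checked against its markers. All 10 hepatocyte markers (such as albumin and transthyretin) were measured, with untreated log2 signals of 14.16 to 18.27. All 10 fell with SQ1, between −1.59 and −0.24 (median −0.71), and with pravastatin 8 fell and 2 rose (median −0.31). Averaged per array they ran from −1.27 to −0.30 with SQ1 and from −0.66 to 0.18 with pravastatin. Their part in the falls of the members was not tested, and on RNA from whole cultures fewer hepatocytes and less RNA per hepatocyte cannot be told apart.

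Markers of other liver cells were present too. The 12 macrophage markers, at untreated log2 signals of 8.65 to 14.50, fell with either drug, 12 of 12 (medians −0.53 and −0.83), with array means of −0.71 to −0.32 for SQ1 and −0.96 to −0.56 for pravastatin. The 9 stellate cell and fibroblast markers fell 9 of 9 with SQ1 (median −0.60) and 4 of 9 with pravastatin (median −0.12). Of 4 measured endothelial markers 3 fell with SQ1 (median −0.28) and 1 with pravastatin (median −0.05). Of 5 cholangiocyte markers 1 rose and 2 fell with SQ1, and 2 rose and 1 fell with pravastatin (medians −0.01 and 0.00). Of 8 neutrophil and lymphocyte markers only 3 were measured, at untreated log2 signals of 6.67 to 7.74. The part of these cells in the members' values was not tested.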

How the data were processed

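The authors scanned the arrays and deposited, per the file headers, spot signals from Agilent Feature Extraction 10.7.1.1 (build rn4) as intensity in arbitrary units and their ratio as log10 of red (A647) over green (A555). Medians were used, since mean signals are not among the columns. The deposited value table holds log2 of treated over untreated and served as an alternative. Of 44254 spots per array 1377 were controls. The other spots carried 30367 probes, 17998 of them named through the RefSeq GRCr8 accessions. Median signals were 588 to 663 (A555) and 790 to 1076 (A647), over backgrounds of 306 to 315 and 339 to 348, and the number of arrays limits precision.

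In R 4.3.3 with limma 3.58.1 and statmod 1.5.0, background was corrected by normexp (offset 50), arrays were normalised by loess with control and non-uniform spots at weight 0, and spots of a probe were averaged. A probe was kept if 6 or more of its 32 channel measurements stood well above background, and the brightest probe stood for a gene. limma fitted a term per drug and a dye term over all 16 arrays, two-sided, with Benjamini-Hochberg adjustment and calls at adjusted p under 0.05. Channel levels were set on one scale by loess and quantile adjustment of mean signals. The limma fit was tested on simulated log ratios with independent noise and no scan day effect, and the sign-flip test on a known case. The steps before the fit were not simulated. Residuals of same-numbered arrays of both drugs correlated at 0.143 to 0.628, each above 0.1, and the number was used as a block in an alternative.

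Named genes were the members, up to 5 genes per list called with at least 1.5-fold in either drug, isoform partners of members, and the 3 genes nearest to each member called with at least 1.5-fold. Genes named outside this rule are said to be so, and some genes it names are not reported here. The members, lists and motifs were chosen with earlier results of these data known, the CACGGG motif last. The alternatives were processed signals, median centring, scaling to 1 spread, 2 other filters, the mean of probes, replicate blocks, scan day, single arrays left out, the drugs fitted apart, no dye term, the value table and each dye orientation alone.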

Additional observations from a re-analysis of the deposited data

Results flagged for a closer look

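Of 52 genes checked under each drug, 104 groups of 8 arrays in all, 4 groups had 1 array far from the rest, and chance gives about 1 in 20. All 4 were under pravastatin. The log2 ratio of Slc2a4 was −0.19 on replicate 1 against −1.55 to −1.17 on the other 7 arrays, and that of Gaa was −0.15 on the same array against 0.07 to 0.24. Slc2a5 was −1.22 on replicate 4 against −0.87 to −0.61, and Ndrg1 was 0.19 on that array against −0.21 to −0.02. The members themselves had no such array.

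The response to SQ1 differed between the scan days for 3 members, by a test of the difference in limma. Day 2 minus day 1 was −0.81 for Pklr, −0.38 for G6pc1 and −0.23 for Fbp1 (adjusted p = 3.6e-05, 0.0019 and 0.037), beside 14.7% of all genes.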

How the results depend on the processing

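All member calls of the 3 comparisons kept their direction and side of the threshold when any 1 of the 16 arrays was left out. With the replicate number as a random block (correlation 0.393) or, for the difference of the drugs, a fixed block, no member's call changed: the SQ1 members called stayed at 7, and G6pc1 differed between the drugs by −2.02. With arrays scaled to 1 spread, list genes called for the difference of the drugs went from 88 to 57, Fbp1 and Pck1 lost that call, and the difference shrank to −0.86 for G6pc1, −0.80 for Slc2a2 and −1.99 for Pklr, all still called. Ldha with pravastatin was −0.13 (limma adjusted p = 0.078) after median centring and −0.24 (0.33) without a dye term; by dye it turned to 0.25 (A647), and with SQ1 to −0.04 (A555). Pfkl with pravastatin was −0.07 on A647 arrays alone and Slc2a2 −0.33 on A555 arrays alone (limma adjusted p = 0.41 and 0.0028). The cause was not tested. Reading the value table under its own labels exchanges the drugs by construction: SQ1 minus pravastatin became 2.04 for G6pc1, 0.51 for Fbp1, 0.35 for Pck1, 2.57 for Pklr, 1.26 for Slc2a2, −0.53 for Pfkl and −0.72 for Ldha, Pfkl was −0.15 with SQ1 and 0.38 with pravastatin, and Ldha −0.23 and 0.49. Pklr and Slc2a2 stood at −0.09 and −0.08 with SQ1 and at −2.67 and −1.34 with pravastatin. Hk2 had no value at the filter of 16 channels. Alternatives within a scan day for the pair tests were not run, since 4 arrays cannot pass.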
